A study of Mus musculus with 6 samples.

Results

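Ptgds, Dpep1, Gstm1 and Sult1a1 encode enzymes that make or modify small signaling and foreign molecules, and their RNA was compared between miR-125b-1 knockout and wild-type mouse ventricles. The 4 genes are represented by 7 probe sets, of 215 named genes and 271 probe sets in the table analysed here. They were chosen by name among probe sets that the table already holds for a large difference between these same arrays, and with that difference known, so their differences are given as a description, with standard errors and without a test. Every probe set that the platform annotation assigns to one of the 4 genes was kept.

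Ventricles were taken at postnatal day 1, and each genotype was measured on 3 Affymetrix mouse genome arrays. Wild-type mice had the genotype aMHC-Cre; 125b1+/+ and knockout mice aMHC-Cre; 125b1f/f, so both groups carried Cre, under a promoter of the cardiac α-myosin heavy chain gene, and the knockout carried loxP sites on both sides of miR-125b-1 on both alleles. Cre from this promoter acts in cardiomyocytes, whereas the RNA was isolated from whole ventricles with all of their cell types. The second gene of this microRNA, miR-125b-2, was not targeted. The study calls the arrays independent experiments and does not state whether an array holds 1 pup or several. The spread between arrays therefore measures these samples and may be partly technical, and with 3 arrays a group the precision is limited. A change in the number of cells that express a gene and a change in the RNA of each cell cannot be told apart in such samples.

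The enzymes stand at different points of connected pathways. Ptgds, the lipocalin-type prostaglandin D synthase, converts prostaglandin H2 to prostaglandin D2 and is also a secreted carrier of lipophilic molecules. Dpep1, a membrane dipeptidase, cleaves cysteinyl-glycine in the breakdown of glutathione and converts leukotriene D4 to leukotriene E4. Gstm1, a glutathione S-transferase of the mu class, couples glutathione to electrophiles in the cytosol. Sult1a1, a cytosolic sulfotransferase, transfers sulfate to phenols and catecholamines.

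The mature microRNA that is cut from the deleted gene is shown first. The knockout group is defined by deletion of that gene in cardiomyocytes, and the same mature form can still come from miR-125b-2 and from other cells. RefSeq places mmu-miR-125b-5p on the plus strand at chr9:41581940-41581961 (GRCm38.p6). The capitals mark its seed, bases 2 to 8.
mmu-miR-125b-5p: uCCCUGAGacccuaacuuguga
No transcript sequence of the 4 genes was used here, so none was searched for a match to this seed.

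The start regions of the 4 genes are shown as a description. The genes were chosen with their higher values known, so their common direction is no evidence of shared regulation. Each window runs from 250 bases before to 50 bases after a transcript start in RefSeq (GRCm38.p6) and is written 5′ to 3′ along the gene. All 4 genes matched, with 2 overlapping windows for Gstm1 and 1 window for each of the others. The windows lie at chr2:25469700-25469999 (Ptgds, minus strand), chr8:123185985-123186284 (Dpep1, plus strand), chr3:108017769-108018068 (the more downstream start of Gstm1, minus strand) and chr7:126676369-126676668 (Sult1a1, minus strand). Capitals mark the matches to the motifs searched.
Ptgds: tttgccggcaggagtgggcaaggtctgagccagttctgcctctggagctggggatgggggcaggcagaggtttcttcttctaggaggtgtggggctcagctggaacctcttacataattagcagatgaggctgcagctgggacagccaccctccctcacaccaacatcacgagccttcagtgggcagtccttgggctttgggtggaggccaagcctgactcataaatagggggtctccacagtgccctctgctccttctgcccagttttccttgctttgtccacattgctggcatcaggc
Dpep1: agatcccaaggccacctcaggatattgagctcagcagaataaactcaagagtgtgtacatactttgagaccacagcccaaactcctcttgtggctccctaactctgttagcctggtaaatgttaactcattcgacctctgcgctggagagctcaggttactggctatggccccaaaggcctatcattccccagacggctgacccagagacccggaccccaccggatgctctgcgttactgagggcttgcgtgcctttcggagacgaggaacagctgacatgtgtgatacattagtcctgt
Gstm1: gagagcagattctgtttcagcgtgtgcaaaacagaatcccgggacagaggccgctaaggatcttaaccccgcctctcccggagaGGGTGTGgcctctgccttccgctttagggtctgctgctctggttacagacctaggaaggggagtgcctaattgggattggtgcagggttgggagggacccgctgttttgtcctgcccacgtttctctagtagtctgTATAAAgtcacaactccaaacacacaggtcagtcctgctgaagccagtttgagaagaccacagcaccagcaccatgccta
Sult1a1: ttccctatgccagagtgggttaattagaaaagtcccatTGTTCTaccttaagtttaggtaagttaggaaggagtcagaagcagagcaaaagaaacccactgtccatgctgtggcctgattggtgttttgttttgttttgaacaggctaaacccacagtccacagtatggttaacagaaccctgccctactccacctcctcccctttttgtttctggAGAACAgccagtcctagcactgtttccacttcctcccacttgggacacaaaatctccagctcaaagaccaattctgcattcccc

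The 4 genes lie on different chromosomes, and 8 motifs were searched on both strands. The palindrome of the glucocorticoid receptor, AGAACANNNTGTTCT, had no match in the 5 windows of the 4 genes and is in 0.00913% of 32851 windows of this length. Its single arm, TGTTCT, is in 19% of all windows and in 2 of the 5 windows here. Sult1a1 has it at bases 212 and 34 before the start, on opposite strands. The more upstream window of Gstm1, at chr3:108017924-108018223, has it at bases 217 and 202 before its start, also on opposite strands. The CACCC-type motif GGGTGTG of Kruppel-like factors is in 7.95% of all windows. It occurs in both windows of Gstm1, at the same genomic position since these windows overlap. TATAAA, in 13.6% of all windows, begins 30 bases before the more downstream start of Gstm1. The antioxidant response core TGACNNNGC (12.4% of all windows), the forkhead motif GTAAACA (3.65%), the E-box CACGTG (7.15%) and the GC box GGGCGG (35.7%) had no match in the 5 windows. Ptgds and Dpep1 had no match to any of the 8. These are matches of letters and not binding sites. No motif was found in all 4 genes. The windows also differ in base composition. Sult1a1 has 46.3% G and C and 0 CpG dinucleotides, whereas the upstream window of Gstm1 has 57.7% and 14, against medians of 52.7% and 7 over all windows.

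In the knockout ventricles all 4 genes were higher, by 6.48-fold for Ptgds, 5.34-fold for Dpep1, 4.64-fold for Sult1a1 and 2.72-fold for Gstm1 on their brightest probe sets. In all 7 probe sets every knockout array was above every wild-type array. This also held for 183 of the 271 probe sets of the table (67.5%), and in the other 32.5% every knockout array was below. Every probe set in the table is thus apart between the groups, and the count of 7 says nothing particular about these enzymes. The differences of the 7 probe sets ranged from 1.17 to 2.70 on the log2 scale, with a median of 2.22, beside a median of 1.41 over the 183 higher probe sets. The smallest difference in the table was 1.00, which is the cutoff of the study, and the Gstm1 probe set nearest to it was at 1.17. Probe sets of these genes under the cutoff, if the array has any, are not analysed here.

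Intensities are given here on the linear scale of the deposited table. For Ptgds (1423860_at) the wild-type arrays read 692, 837 and 615 and the knockout arrays 3979, 4692 and 5181. The lowest knockout array was 4.76 times the highest wild-type array. The group means were 714 ± 113 and 4617 ± 605 (SD, n = 3 each), and the difference was 2.70 on the log2 scale with a standard error of 0.13 from limma. Ptgds held rank 5 of 271 from the highest difference. Intensities of different probe sets do not compare RNA amounts, so levels are set side by side within a probe set only.

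Dpep1 had 2 probe sets, and both placed it among the largest differences of the table. On the brighter one (1435943_at) the wild-type arrays read 197, 148 and 165 and the knockout arrays 934, 969 and 807. The lowest knockout array was 4.10 times the highest wild-type array. The means were 170 ± 24.7 and 903 ± 85.6 (SD, n = 3 each), a log2 difference of 2.42 (standard error 0.12).

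On the other Dpep1 probe set (1419674_a_at) the wild-type arrays read 75.3, 56.3 and 65.1 and the knockout arrays 372, 354 and 402. No detection calls were used here, so whether these wild-type intensities exceed background is not known. The log2 difference was 2.53 (standard error 0.12), or 5.77-fold. The differences of the probe sets lay 0.11 apart on the log2 scale with a standard error of 0.13, and their log2 ratio overlapped between the groups. They ranked the knockout arrays differently, since replicate 3 was the lowest of the 3 on the brighter probe set and the highest on the other.

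Gstm1 had 3 probe sets with smaller differences. On the brightest (1416416_x_at) the wild-type arrays read 618, 493 and 501 and the knockout arrays 1346, 1433 and 1583. The means were 537 ± 70.0 and 1454 ± 120 (SD, n = 3 each), a log2 difference of 1.44 (standard error 0.12). The lowest knockout array was 2.18 times the highest wild-type array.

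On 1448330_at the wild-type arrays read 412, 318 and 323 and the knockout arrays 911, 1058 and 1084, which is a log2 difference of 1.54 (standard error 0.12), or 2.91-fold. On 1425627_x_at the wild-type arrays read 157, 135 and 131 and the knockout arrays 286, 328 and 334, which is 1.17 (standard error 0.12), or 2.25-fold. The 3 probe sets thus had one direction and unequal sizes. The log2 ratio of 1448330_at to 1425627_x_at was higher in every knockout array than in every wild-type array, with a difference of 0.37 (standard error 0.05). The other 2 pairs of Gstm1 probe sets were apart as well, by 0.10 (1448330_at above 1416416_x_at) and 0.27 (1416416_x_at above 1425627_x_at). The suffix _x_at marks probes that can also match other genes. In RefSeq Gstm1 lies in a cluster of 7 mu-class genes on chromosome 3, and none of the other 6 is in the table. What those genes add to the Gstm1 probe sets was not tested. It cannot be read from the order of the 3 differences, of which the probe set without this suffix had the largest.

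For Sult1a1 (1427345_a_at) the wild-type arrays read 273, 187 and 205 and the knockout arrays 946, 917 and 1204. The lowest knockout array was 3.36 times the highest wild-type array. The means were 221 ± 45.2 and 1022 ± 158 (SD, n = 3 each), a log2 difference of 2.22 (standard error 0.13). It held rank 15 of 271. Sult1a1 had the widest spread between arrays among the 7 probe sets, with an SD of 0.28 in the wild-type and 0.21 in the knockout on the log2 scale. No other sulfotransferase gene of the Sult family is in the table.

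**Figure D1:**
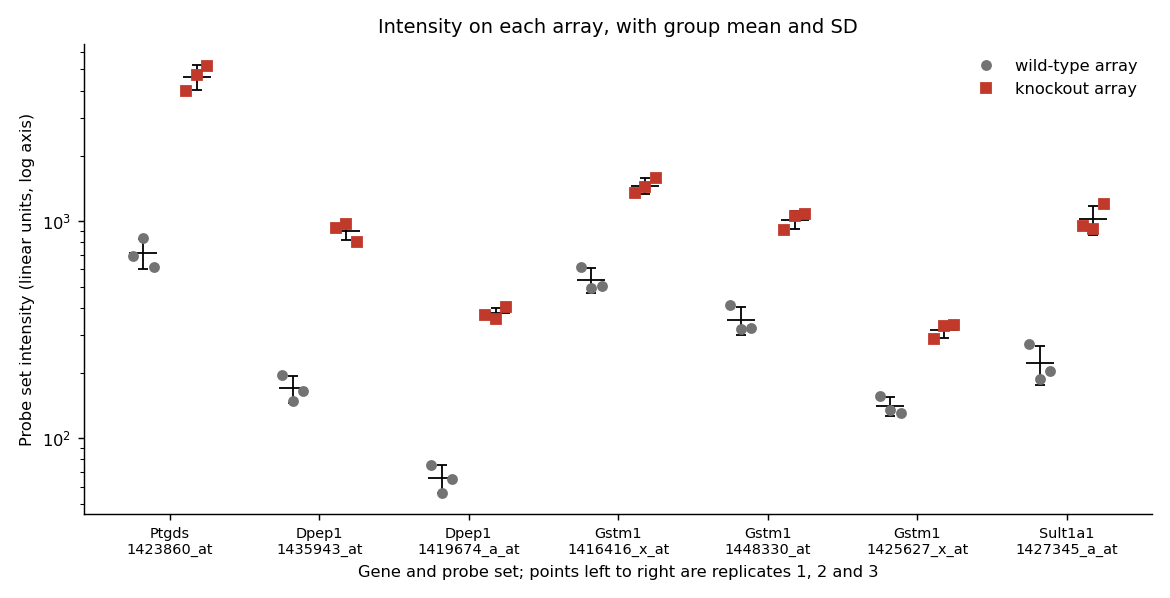
Probe set intensity (log axis) of the 4 genes on the 3 wild-type arrays (grey circles) and the 3 knockout arrays (red squares), with bars at the group mean and SD (n = 3). The groups are apart in all 7 probe sets, from 692, 837 and 615 against 3979, 4692 and 5181 for Ptgds to 157, 135 and 131 against 286, 328 and 334 for the dimmest Gstm1 probe set.

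**Figure D2:**
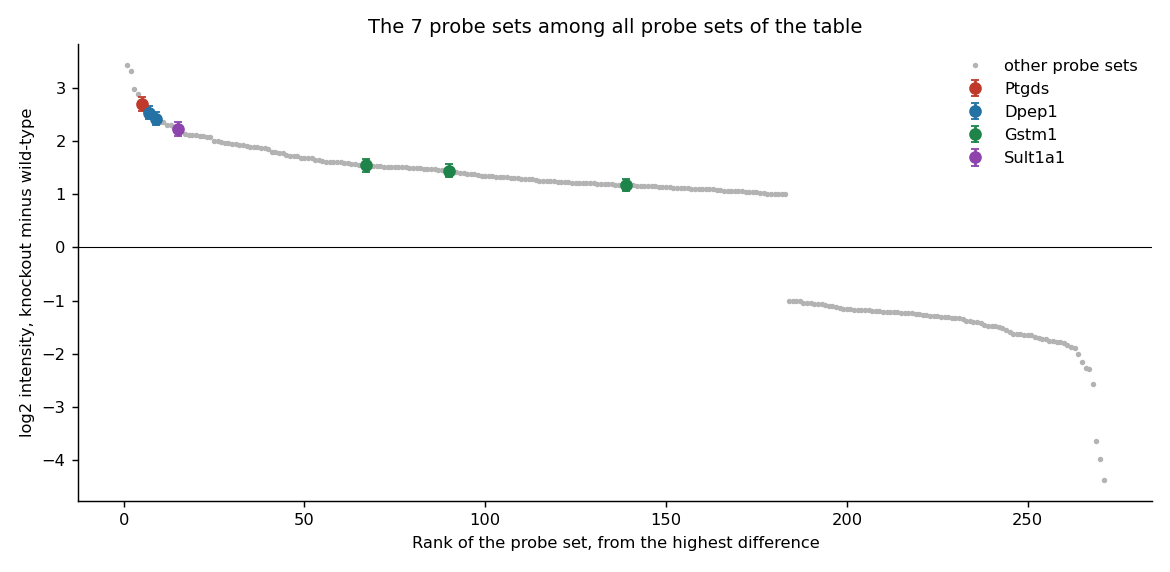
Difference in log2 intensity between knockout and wild-type arrays for all 271 probe sets, ordered from the highest (x axis, rank), with the 7 probe sets in colour and bars of 1 standard error from limma. Ptgds, Dpep1 and Sult1a1 lie within the first 15 ranks and the 3 Gstm1 probe sets at ranks 67, 90 and 139. The gap between -1 and 1 is the selection of the table.

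The order of the 4 genes by their difference was Ptgds, Dpep1, Sult1a1 and Gstm1. Ptgds was above Dpep1 by 0.28 (standard error 0.28) and Dpep1 above Sult1a1 by 0.20 (standard error 0.21) on the log2 scale, and in both pairs the array-wise log2 ratio of the probe sets overlapped between the groups, so these neighbours did not differ beyond their spread. Sult1a1 was above Gstm1 by 0.77 (standard error 0.10), and here the ratio was higher in every knockout array than in every wild-type array. The standard errors of these differences between genes are from the array-wise log2 ratios and not from limma.

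Within the groups the arrays differed in a partly shared way. Wild-type replicate 1 was the highest wild-type array in 6 of the 7 probe sets, all but Ptgds, where replicate 2 was. It was so in 41% of all 271 probe sets. Knockout replicate 3 was the highest knockout array in 6 of the 7, all but the brighter Dpep1 probe set, and in 44.3% of all probe sets. The SD of log2 intensity was 0.14 to 0.28 in the wild-type and 0.09 to 0.21 in the knockout for the 7 probe sets, beside medians of 0.13 and 0.12 over the table. The SD was larger in the wild-type arrays in the 7 probe sets, and so was its median over the table. The share of all probe sets with this order was not counted, so nothing particular to these enzymes is read from it. Probe sets of 1 gene share its RNA, so the 7 are not independent. Leaving out wild-type replicate 1 gave the highest log2 difference of Dpep1 (2.53), Gstm1 (1.55) and Sult1a1 (2.38) among the omissions of 1 array, and leaving out knockout replicate 3 the lowest of Gstm1 (1.38) and Sult1a1 (2.09). The lowest for Dpep1 was 2.32, without wild-type replicate 2. Ptgds ranged from 2.59 without wild-type replicate 3 to 2.82 without wild-type replicate 2.

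**Figure D3:**
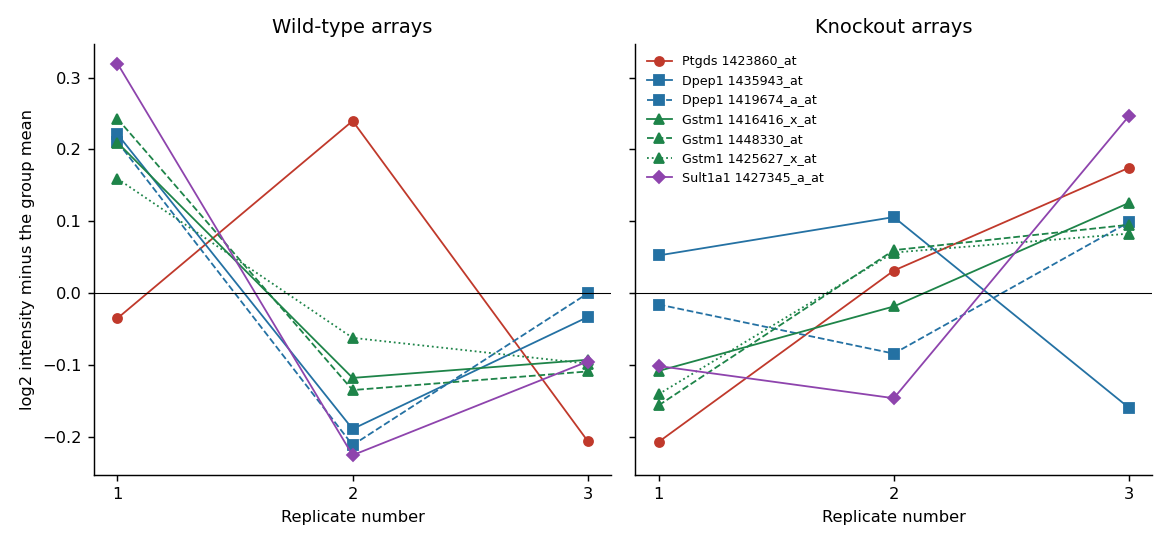
Log2 intensity minus the mean of the group for the 7 probe sets on each wild-type (left) and knockout (right) array; numbers on the x axis name the replicates and lines only join the points of a probe set. Wild-type replicate 1 is the highest in 6 of the 7 probe sets and knockout replicate 3 in 6 of the 7.

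The size of these differences depended on the scaling of the arrays. Between the groups the array medians shifted by 0.54 (log2, knockout above wild-type), and the selected table offers no unchanged probe sets against which to set the zero. With 183 probe sets higher and 88 lower by 1.00 or more, a table so selected can show such a shift without any difference in scaling. Whether the scaling differed was not tested, so the rescaled values are alternatives and not corrections. Relative to this shift, with each array centred on its median, Ptgds was at 2.15, the Dpep1 probe sets at 1.88 and 1.99, Sult1a1 at 1.67 and the Gstm1 probe sets at 0.90, 1.00 and 0.63. After quantile normalization the 7 ranged from 0.61 to 2.03. The share of all probe sets above 0 was 67.5% under each of these 2 scalings too, as it was before, and the smallest difference of 1.00 is larger than the shift, so that the sign of the 7 says nothing particular about them. The 4 probe sets of Ptgds, Dpep1 and Sult1a1 remained at 1 or more, beside 66 and 65 of the 271 probe sets. Gstm1 was 2.72-fold higher as deposited, 1.87-fold after centring and 1.63-fold after quantile normalization on its brightest probe set.

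Of the other genes of these pathways few are in the table. Of 44 listed genes of prostaglandin and leukotriene metabolism and signaling 4 are in it. Besides Ptgds and Dpep1 these are Ggt5, which was higher, and Ephx2, which was lower. Ggt5, a γ-glutamyltransferase, converts leukotriene C4 to leukotriene D4, the substrate of Dpep1. Its probe set (1418216_at) read 90.0, 88.3 and 87.4 in the wild-type and 214, 189 and 191 in the knockout, a 2.23-fold difference (log2 1.16, standard error 0.11). The other enzymes and receptors of the list, among them the cyclooxygenases Ptgs1 and Ptgs2, which supply the substrate of Ptgds, and the receptors Ptgdr and Ptgdr2, which bind its product, are not analysed here.

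Ephx2, the soluble epoxide hydrolase that inactivates epoxides of arachidonic acid, was the single lower gene of the lists. Its probe set (1448499_a_at) read 1290, 1234 and 1454 in the wild-type and 598, 588 and 524 in the knockout. It was 2.32-fold lower, a log2 difference of -1.22 (standard error 0.11), and -1.76 after centring.

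Of 62 listed glutathione genes 4 are in the table, Dpep1, Gstm1, Ggt5 and Gsto1. Leaving aside Dpep1 and Gstm1, which were chosen for their differences, 2 remain, and both were higher, as 67.5% of all probe sets were. Gsto1, an omega-class transferase with reductase activity, had 2 probe sets. On the brighter one (1416531_at) the wild-type arrays read 788, 787 and 820 and the knockout arrays 2092, 1877 and 2148, which is 2.55-fold higher (log2 1.35, standard error 0.11). On 1456036_x_at, again with probes that can match other genes, it was 2.95-fold higher (log2 1.56, standard error 0.12). Gstm1 and Gsto1 had differences of 1.44 and 1.35 on their brightest probe sets. Both are near the median of 1.41 over the 183 higher probe sets, so their similarity says nothing particular about these genes. The enzymes of glutathione synthesis, Gclc, Gclm and Gss, are not analysed here.

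Of 30 listed sulfation genes Sult1a1 was the single one in the table, and neither of the synthases of its sulfate donor, Papss1 and Papss2, is analysed here. Of 50 further genes of drug and foreign compound metabolism 3 are in the table, and all 3 were higher. Kyat3 cleaves cysteine conjugates, into which glutathione conjugates are degraded. It read 132, 135 and 143 in the wild-type and 702, 572 and 536 in the knockout, which is 4.39-fold higher (log2 2.14, standard error 0.12). Fmo5, a flavin monooxygenase, was 3.29-fold higher (log2 1.72, standard error 0.12) on a probe set ending in _s_at, whose probes are shared between transcripts. It read 63.8, 48.2 and 51.9 in the wild-type and 152, 192 and 195 in the knockout. Whether these wild-type intensities exceed background is not known. Cyp27a1, the sterol 27-hydroxylase of mitochondria, was 2.73-fold higher (log2 1.45, standard error 0.11). Together 10 of the 183 genes on the 4 lists are in the table. Of these 4 are the genes described here, chosen with their higher values known, and of the other 6 genes 5 were higher and 1 was lower, with a median difference of 1.40, beside 67.5% higher probe sets and a median of 1.18 over the whole table. The difference of this share from that of the table was not tested. These lists were written with earlier results of these data known, and the selection fixes that each listed gene in the table differs by 1.00 or more.

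**Figure D4:**
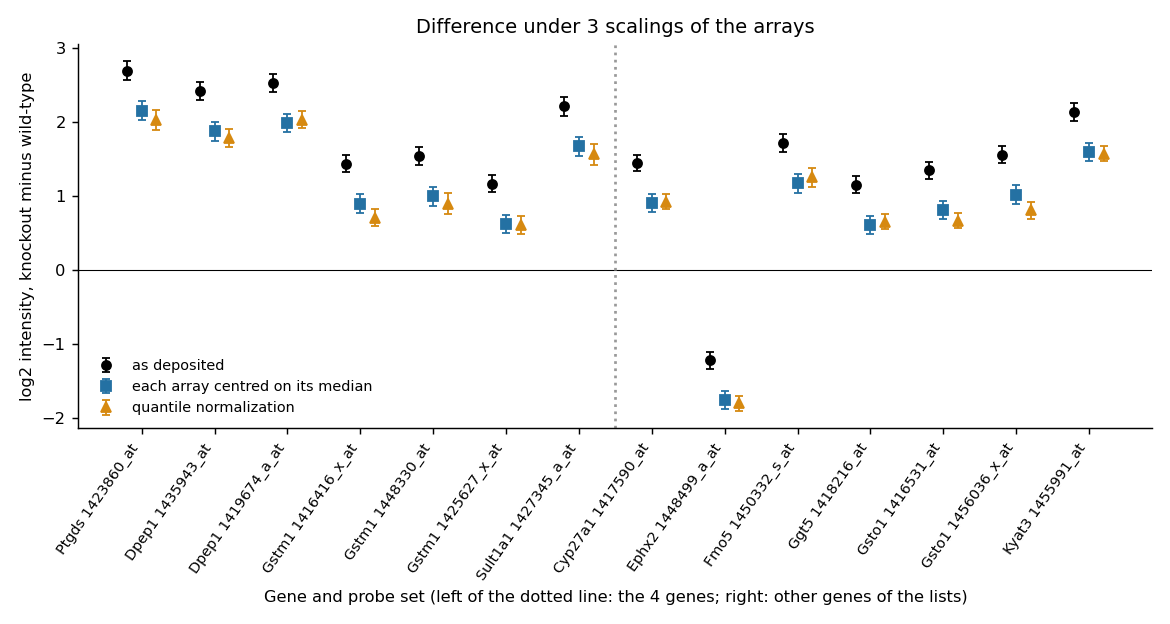
Difference in log2 intensity, knockout minus wild-type, as deposited (black circles), with each array centred on its median (blue squares) and after quantile normalization (orange triangles), with bars of 1 standard error from limma, for the 7 probe sets (left of the dotted line) and the 7 probe sets of the other listed genes (right). All but Ephx2 stay above 0 under the 3 scalings, and the Gstm1 probe sets are at 1.00 or under after either rescaling.

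Genes with the most similar profile over the 6 arrays were taken by the root mean squared difference of log2 values, each set to 0 at its wild-type mean. For Ptgds these were the second Dpep1 probe set (0.27), the transcription factor gene Klf15 (0.28) and the glutamine synthetase gene Glul (0.29). For Dpep1 they were Lrrc2 (0.12), the noncoding RNA Snhg16 (0.21) and the sestrin gene Sesn1 (0.22). For Gstm1 they were Cyp27a1 (0.07), Sbk1 (0.08) and Tmem164 (0.09), and for Sult1a1 Fam107a (0.17) and 2 probe sets of Sesn1 (0.18 and 0.21). The measure mostly follows the size of the difference, which the table selects for, and is a description over 6 arrays.

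Markers of other cells could be checked only in part. Of 57 marker genes of 12 other cell types or tissues, among them endothelium, epicardium, leukocytes, mast cells, meninges, lung and liver, 1 is in the table, the fibroblast collagen gene Col3a1, which had a log2 difference of -1.10. Of 12 cardiomyocyte genes 1 is in the table, Myh7, the β-myosin heavy chain, at 3.43. The study reports the same gene as a stress marker that rose in knockout neonates, so its difference does not measure cardiomyocyte content. The other markers are not analysed here, so the tissue label could not be checked beyond this, and the part that other cells have in the differences of the 4 genes was not tested. None of the named probe sets is of the targeted microRNA gene, so the genotype labels were taken as given.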

How the data were processed

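RNA of mouse ventricles was measured on 6 Affymetrix 1-colour arrays. The authors deposited 1 intensity per probe set and array on a linear scale (30.1 to 18292), and analysed the arrays in GeneSpring GX. Summarization and normalization are not given in the sources used here. The table analysed here holds 271 probe sets, all with a log2 difference of at least 1.00, so the standard errors can be too small. Intensities were set to log2 without an offset. Knockout minus wild-type was fitted over the whole table with limma 3.58.1 (lmFit, eBayes) in R 4.3.3, which was tested on simulated data, and no p is given for the selected genes. Standard errors of differences between probe sets came from the variance of their array-wise log2 ratio in each group, without limma. Counts were made in Python 3.11.15 with pandas 2.3.3. Probe sets were named by the platform annotation and RefSeq (GRCm38.p6), with 253 named for 1 gene, 3 for several and 15 unnamed. The brightest probe set stood for a gene in lists. The members and lists were chosen with earlier results of these data known. Listed genes in the table and, for each of the 4 genes, the 3 nearest profiles were named. Alternatives were 2 rescalings, the mean over probe sets, filters on shared probes and on the dimmest 25%, an offset of 50, trended and robust eBayes, a replicate block, and leaving out each array.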

Additional observations from a re-analysis of the deposited data

How the results depend on the processing

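Of 56 alternative values of the 4 differences, all above 0, 9 lay more than 1 SD of the arrays from the value reported. Many of the 56 could not move that far, so this count is not evidence of stability. Leaving out 1 array gave 24 of them. The replicate block, the eBayes settings and the filter on dim probe sets returned the reported value for all 4 genes. The filter on shared probes did so for all but Gstm1, and the mean over probe sets for Ptgds and Sult1a1. Centring and quantile normalization moved all 4 differences beyond 1 SD, and the offset moved that of Dpep1. With each array centred on its median the log2 differences of the brightest probe sets were 2.15 for Ptgds, 1.88 for Dpep1, 0.90 for Gstm1 and 1.67 for Sult1a1. After quantile normalization they were 2.03, 1.78, 0.71 and 1.57. With 50 added to each intensity Dpep1 was at 2.12. Leaving out 1 array moved no difference by more than that SD, and with 3 arrays a group it could not. Nor can leaving out 1 array undo the separation of groups that are apart with all arrays. Neither the differences nor the count of 7 probe sets is thus evidence of stability there. Same-numbered arrays did not deviate together (correlations of -0.02, 0.01 and 0.08 over 271 probe sets), so no pairing by number was seen in these selected probe sets. Whether same-numbered arrays were prepared together cannot be told from this. Each number has 1 array in each group, so the replicate block leaves the differences the same by design, 2.70 for Ptgds. Its standard errors were 0.12 to 0.15 for the 4 genes. The mean over probe sets gives no count of probe sets, and eBayes settings do not enter it. Detection calls were not used, which limits the dimmest values, among them the wild-type intensities of the dimmer Dpep1 probe set and of Fmo5.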
